A study of Mus musculus with 40 samples.

Results

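Among 181769 regions with the histone mark H3K4me1 in mouse blood stem and progenitor cells, 1555 (0.855%) carried a peak in all 3 genotypes with Flt3-ITD and in none of the 3 genotypes without it. The regions were made by merging the peaks of the 6 deposited H3K4me1 lists, 1 per genotype, wherever they shared at least 1 bp on chromosomes 1 to 19 and X. A member was a region touched by a peak of the Flt3-ITD list, of the Flt3-ITD/Runx1-het list and of the Flt3-ITD/NUP98-HOXD13 list, and by no peak of the wild-type, NUP98-HOXD13 and Runx1-het lists. The members were chosen by the presence of H3K4me1 peaks, so that mark is described in them without any test.

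H3K4me1 is placed on enhancers, both poised and active, and H3K27ac marks those enhancers and promoters that are active. FLT3 is a receptor tyrosine kinase of early blood progenitors, and its internal tandem duplication (ITD), common in acute myeloid leukaemia, makes it signal without its ligand. The mutant receptor activates STAT5, a transcription factor that binds GAS elements and switches on feedback inhibitors such as the SOCS genes and survival genes such as Bcl2l1.

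The cells were sorted HSCs and HPCs of 21-day-old mice, and the marks were mapped by ChIPmentation, in which the transposase Tn5 adds sequencing adapters to chromatin held on antibody beads. Mice were wild type or carried Flt3-ITD, NUP98-HOXD13 (a fusion of a nuclear pore protein with a homeodomain protein) or Runx1-het. Combined genotypes were Flt3-ITD/Runx1-het and, separately, Flt3-ITD/NUP98-HOXD13. Runx1-het samples have source names that join Runxf and Vav, and neither the alleles nor the promoters that drive the mutant genes were stated in what was used here. Of 40 samples, 39 carried a mark, in 12 groups of 3 or 4, and each group was deposited as 1 pooled peak list, so that no value per mouse was used, no p-value could be computed and the spread between mice is unknown.

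The shortest H3K4me1 list had 72676 peaks (Runx1-het), the longest 117034 (Flt3-ITD/Runx1-het), and read depth is unknown. The 3 Flt3-ITD lists covered 44.6 to 55.7 Mb and the other 3 covered 35.2 to 43.6 Mb. In the NUP98-HOXD13 list 7.23% of the peaks had a −log10 q of at least 5, against 17.5 to 34.0% in the other 5 lists. H3K27ac lay at the promoters of 8 to 10 of 10 stem and progenitor markers in every list, at 1 of 7 T cell markers (Lck) in every list, at 1 or 2 of 5 macrophage markers (Lyz2 in every list, Cd68 in every list but NUP98-HOXD13), and at none of 5 markers of other tissues. Of 5 erythroid markers it lay at 2 in Flt3-ITD/Runx1-het (Hbb-bs and Klf1), at 1 in both NUP98-HOXD13 lists and at none in the others. At most 1 of 7 mature granulocyte markers (Ltf) had it in any list. The part of such cells in the results was not tested.

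Sequences are shown first for the members that lie over a gene start or a microRNA, since these tie a region to a transcript. RefSeq promoter windows (GRCm38.p6, 250 bases before to 50 after each start) were overlapped by members over at least 150 bases in 16 cases, from 13 genes. The 250 bases before the start are printed for 4 of them, with capitals for any match to the 11 motifs searched. The Csf2rb2 promoter, chr15:78305722-78305971 on the minus strand, belongs to a receptor chain used by IL-3, and its member spans chr15:78305639-78306953. The promoter of the predicted gene Gm4035 lies at chr13:37435122-37435371 on the minus strand. Both hold the GAS letters TTCNNNGAA, as TTCTGAGAA. The promoter of Gm38676, chr6:86528514-86528763 on the plus strand, holds the GATA letters AGATAA at 2 places. The promoter of Crisp3, which encodes a secreted protein, lies at chr17:40242289-40242538 on the minus strand and shows a window with neither GAS nor GATA letters.
Csf2rb2: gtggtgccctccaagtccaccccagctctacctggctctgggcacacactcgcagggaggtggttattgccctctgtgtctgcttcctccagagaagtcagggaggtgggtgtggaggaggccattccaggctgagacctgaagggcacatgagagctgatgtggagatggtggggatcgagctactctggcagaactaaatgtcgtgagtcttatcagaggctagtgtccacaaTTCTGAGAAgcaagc
Gm4035: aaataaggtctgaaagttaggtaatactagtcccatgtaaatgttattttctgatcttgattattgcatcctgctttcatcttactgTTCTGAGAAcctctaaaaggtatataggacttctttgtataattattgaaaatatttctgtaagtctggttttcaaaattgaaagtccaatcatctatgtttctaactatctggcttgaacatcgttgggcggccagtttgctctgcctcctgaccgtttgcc
Gm38676: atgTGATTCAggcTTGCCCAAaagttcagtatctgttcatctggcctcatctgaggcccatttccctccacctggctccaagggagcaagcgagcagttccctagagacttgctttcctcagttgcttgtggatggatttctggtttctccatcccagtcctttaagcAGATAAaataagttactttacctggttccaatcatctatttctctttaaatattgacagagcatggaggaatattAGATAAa
Crisp3: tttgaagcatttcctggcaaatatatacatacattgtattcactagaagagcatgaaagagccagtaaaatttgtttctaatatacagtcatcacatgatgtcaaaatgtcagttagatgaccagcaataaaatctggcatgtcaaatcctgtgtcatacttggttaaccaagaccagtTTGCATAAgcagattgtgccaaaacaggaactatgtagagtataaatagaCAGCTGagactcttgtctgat

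The GAS letters TTCNNNGAA, read on both strands, were found in 2 of the 16 windows over members (12.5%, 95% Wilson interval 3.50 to 36%), in 10.2% of the 2104 windows over any H3K4me1 region and in 8.33% of all 32585 windows. The stricter form TTCCNGGAA, which is contained in TTCNNNGAA, was found in none of the 16, in 1.52% of those over any region and in 1.16% of all. AGATAA was found in 7 of 16 windows against 16.5% over any region and 11.2% of all, but 4 of the 7 are overlapping windows of alternative starts of Gm32645. The RUNX letters TGTGGT were found in 6 of 16 windows (16.6% of all), and 4 of those 6 are the same Gm32645 starts. The remaining 7 motifs were found in 0 to 3 of the 16 windows: CAGGAAG (ETS, 13.4% of all windows), TGANTCA (AP-1, 7.85%), TTGCNNAA (C/EBP, 10.9%), an IRF motif (GAAA, any 2 bases, GAAA, 3.45%), CAGCTG (E-box, 16.4%), AACNGTT (MYB, 4.46%) and TGATTNAT (HOX, 3.24%). With 16 windows, the GAS share over members was within counting error of both background shares. A match is a description of the letters and does not show binding.

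One member, chr13:113037533-113038564 in an intron of Cdc20b, covers the hairpin of Mir449a at chr13:113037534-113037624. MiR-449a belongs to the family of miR-34, whose members share the seed GGCAGUG and restrain the cell cycle. The mature forms are printed with bases 2 to 8, the seed, in capitals.
mmu-miR-449a-5p: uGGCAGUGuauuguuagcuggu
mmu-miR-449a-3p: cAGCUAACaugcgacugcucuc
The H3K4me1 fold enrichment of this member was 3.88 with Flt3-ITD, 3.41 with Flt3-ITD/NUP98-HOXD13 and 4.42 with Flt3-ITD/Runx1-het. No H3K27ac peak touched it in any of the 6 lists.

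Fold enrichment here and below is the authors' value over control at the summit of the strongest peak that touches the region. That summit can lie outside the region, and the value ranks peaks within 1 list only. Members were of middling height. Their median fold enrichment was 3.98 in the Flt3-ITD list, 3.75 in the Flt3-ITD/NUP98-HOXD13 list and 4.42 in the Flt3-ITD/Runx1-het list. These medians lay at the percentiles 43.4, 40.3 and 54.2 of their lists, whereas regions present in all 6 lists lay at 84.0, 84.0 and 82.0. The members ranged from 2.02 to 9.32, from 2.06 to 7.74 and from 1.97 to 9.14 in the same order. Their median width was 624 bp (quartiles 497 and 810), against 396 bp for all regions, 625 bp for the 16328 other regions held by exactly 3 lists, and 1756 bp for regions in all 6 lists.

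Members were ordered by the lowest of their 3 within-list percentiles, and the first lies in an intron of Ncam2, a neural cell adhesion gene, at chr16:81365410-81366246. Its H3K4me1 fold enrichment was 9.32 with Flt3-ITD, 6.55 with Flt3-ITD/NUP98-HOXD13 and 6.60 with Flt3-ITD/Runx1-het, and the nearest peak of a list without Flt3-ITD was 21.0 kb away. A second Ncam2 member, chr16:81366360-81368585, follows it directly with values of 5.41, 4.79 and 5.87. The Ncam2 intron held 4 members within 15.4 kb. Of these 4, 3 had H3K27ac in a Flt3-ITD list and none had it in a list without Flt3-ITD.

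**Figure D1:**
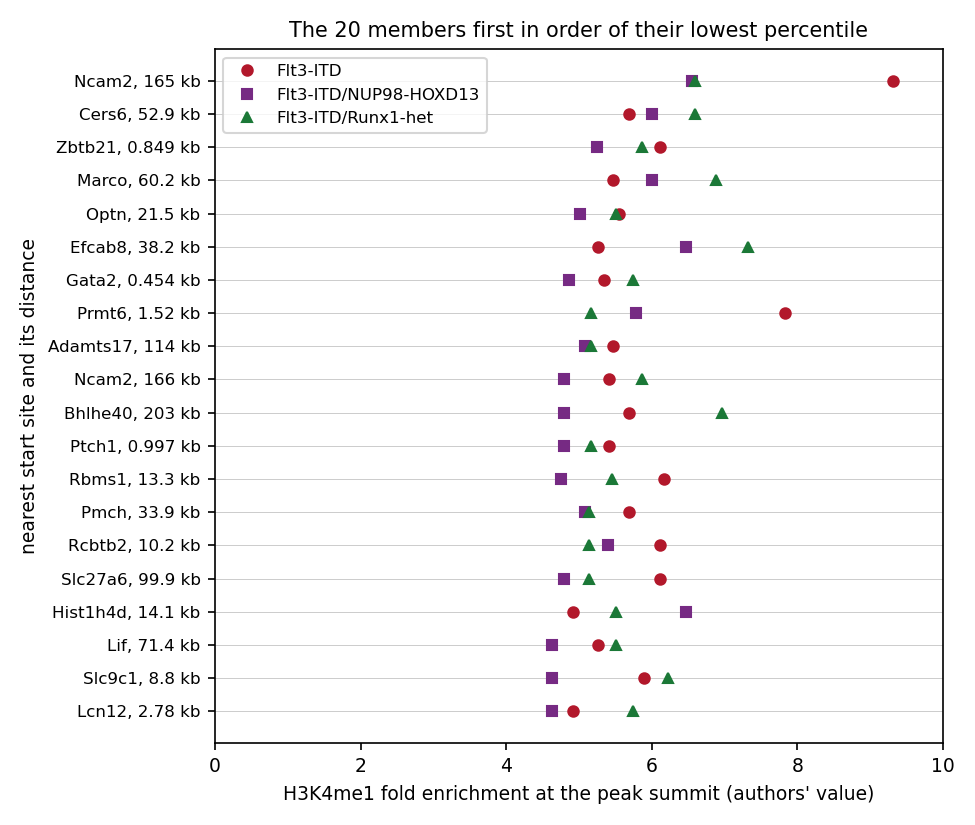
H3K4me1 fold enrichment (authors' value, x axis) of the 20 members that come first when ordered by the lowest of their 3 within-list percentiles, in the Flt3-ITD (circles), Flt3-ITD/NUP98-HOXD13 (squares) and Flt3-ITD/Runx1-het (triangles) lists. Each row gives the nearest start site and its distance in kb, and the first Ncam2 member stands highest with 9.32 in the Flt3-ITD list.

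The first 20 members in that order lay at genes of varied function. They include an intron of Cers6 (a ceramide synthase, 5.69, 6.01 and 6.60 in the 3 Flt3-ITD lists), an intron of Optn (an autophagy receptor, 5.55, 5.02 and 5.51), an intron of Ptch1 (the hedgehog receptor, 5.41, 4.79 and 5.17) and an untranslated part of Prmt6 (an arginine methyltransferase, 7.83, 5.78 and 5.17). The Cers6, Optn and Ptch1 members had no H3K27ac in any list, and the Prmt6 member had it only in the wild-type list (5.66). Strong H3K4me1 in the Flt3-ITD lists therefore did not always come with H3K27ac there. The member beside Zbtb21, a zinc finger gene, is an opposite case. Its H3K4me1 values were 6.12, 5.25 and 5.87, and H3K27ac peaks reached into it in all 6 lists, with fold enrichments of 16.1 (wild type), 33.7 (NUP98-HOXD13), 30.6 (Runx1-het), 27.4 (Flt3-ITD), 28.5 (Flt3-ITD/Runx1-het) and 29.7 (Flt3-ITD/NUP98-HOXD13). All 6 of those summits lay outside the member.

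Gata2 encodes a transcription factor of stem cells and mast cells. Its member, chr6:88192273-88193437, lies 0.454 kb from an annotated Gata2 start, with H3K4me1 values of 5.34, 4.87 and 5.74. The nearest peak of a list without Flt3-ITD was 5.54 kb away. No H3K27ac peak touched this member in any list.

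At the edge of the rule, members were weak in at least 1 Flt3-ITD list. The lowest −log10 q of any member was 0.453, at Samd4, in the Flt3-ITD/Runx1-het list, where its fold enrichment was 1.97 against 4.83 with Flt3-ITD and 3.81 with Flt3-ITD/NUP98-HOXD13. Several members shared the next value, 0.532. The first of them by position lies in an intron of Cuedc1 at chr11:88152776-88153470, with fold enrichments of 2.08, 4.02 and 3.30 in the 3 Flt3-ITD lists in the order used above. The 3 regions first in the same order that missed the rule by 1 list lie near Camk2g, Diras2 and Plcg2. All 3 were also held by the NUP98-HOXD13 list, with fold enrichments of 5.99, 5.93 and 6.53 there. In the 3 Flt3-ITD lists, in the order used above, Camk2g had 7.0, 7.16 and 6.89, Diras2 had 8.95, 5.88 and 6.82, and Plcg2, which encodes a phospholipase of receptor signalling, had 6.17, 5.86 and 7.32. A further 900 regions held by all 3 Flt3-ITD lists were kept out by the wild-type list alone, 3025 by the NUP98-HOXD13 list alone and 1082 by the Runx1-het list alone. In the other direction, 2777, 3199 and 2544 regions were absent from all lists without Flt3-ITD but missed the Flt3-ITD, Flt3-ITD/NUP98-HOXD13 or Flt3-ITD/Runx1-het list.

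The reverse set, regions held by all 3 lists without Flt3-ITD and by none with it, numbered 246 (0.135%), so there were 6.32 members per reverse region. This ratio moved with list length. When every list was shortened to the 72676 peaks with the highest −log10 p, 747 members and 420 reverse regions were left, a ratio of 1.78.

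Most members lay close to H3K4me1 peaks found without Flt3-ITD. Of the 1555, 958 (61.6%, 59.2 to 64.0) had a peak of a list without Flt3-ITD within 1 kb, 1333 (85.7%) within 5 kb, and the median gap was 627 bp. Of the reverse regions, 70.7% had a peak of a Flt3-ITD list within 1 kb. The remaining 222 members were more than 5 kb from any H3K4me1 peak of the lists without Flt3-ITD.

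By position, 818 members (52.6%) had their midpoint in an intron, 525 (33.8%) between genes, 177 (11.4%, 9.90 to 13.1) at a promoter, defined as within 1 kb of a protein-coding start site, 24 in an untranslated exon part and 11 in a coding exon. The promoter share was 9.48% over all regions, 10.8% over other regions held by exactly 3 lists and 8.13% over the reverse set. It lay inside counting error of the share in other 3-list regions. The median distance to a start site was 16.5 kb for members and 18.2 kb for all regions, and 1161 members (74.7%) had a start site within 50 kb.

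Each background can be left out of the rule and then read as a check that the choice did not use. Regions held by both Flt3-ITD double mutants and by neither NUP98-HOXD13 nor Runx1-het numbered 5820. In them the Flt3-ITD list alone held 1555 and the wild-type list alone held 588, so 72.6% (70.6 to 74.4) of the regions that differed between these lists went with Flt3-ITD. Over all regions 63.1% did, from 22.1% held by Flt3-ITD alone and 12.9% by wild type alone. Leaving out the NUP98-HOXD13 background gave 9352 regions, with 1555 held by Flt3-ITD/NUP98-HOXD13 alone and 1573 by NUP98-HOXD13 alone. The share was 49.7% (48.0 to 51.5), below the 56.1% of all regions (18.3% and 14.3%). Leaving out the Runx1-het background gave 6256 regions, 1555 against 1075, or 59.1% (57.2 to 61.0), below the 69.1% of all regions (30.2% and 13.6%). Choosing by Flt3-ITD in 2 backgrounds thus went with a higher share than in all regions in the left-out background for the wild-type pair and with a lower one for the other pairs. The opposite choice, regions held only without Flt3-ITD in 2 backgrounds, gave 65.0% (61.4 to 68.4) in the wild-type pair, 74.1% (71.2 to 76.7) in the NUP98-HOXD13 pair and 71.5% (68.4 to 74.4) in the Runx1-het pair. In the NUP98-HOXD13 and Runx1-het pairs these shares exceeded those of the Flt3-ITD choice. The length of the Flt3-ITD/Runx1-het list and the low −log10 q of the NUP98-HOXD13 list move with these shares, and their part in the result was not tested.

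H3K27ac did not choose the members and was read at them in its own 6 lists. A peak of H3K27ac touched 383 members in the Flt3-ITD list (24.6%, 22.6 to 26.8), 359 in the Flt3-ITD/NUP98-HOXD13 list (23.1%, 21.1 to 25.2) and 423 in the Flt3-ITD/Runx1-het list (27.2%, 25 to 29.5). It touched 280 in the wild-type list (18%, 16.2 to 20%), 289 in the NUP98-HOXD13 list (18.6%, 16.7 to 20.6) and 274 in the Runx1-het list (17.6%, 15.8 to 19.6). Every Flt3-ITD list stood above every list without Flt3-ITD. All regions showed a smaller gap in the same direction, with 19.2, 19.5 and 19.9% in the Flt3-ITD lists and 15.8, 17.1 and 16.2% in the others. In other regions held by exactly 3 lists, which have the same median width to within 1 bp, the shares were 20, 20.9 and 21.6% with Flt3-ITD and 16.0, 18.6 and 16.3% without.

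**Figure D2:**
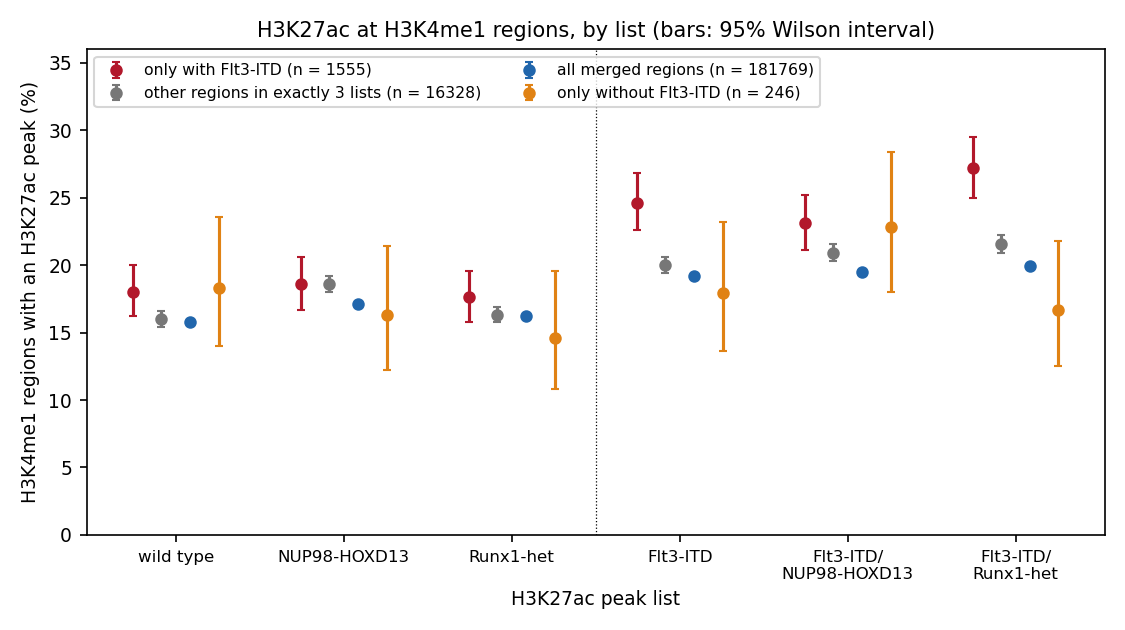
Share of H3K4me1 regions touched by an H3K27ac peak (y axis, percent) in each of the 6 H3K27ac lists, with lists without Flt3-ITD left of the dotted line. Points are shares and bars are 95% Wilson intervals, which cover counting error only; members (red) run from 17.6 to 18.6% without and from 23.1 to 27.2% with Flt3-ITD.

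At least 1 Flt3-ITD list had H3K27ac at 589 members (37.9%, 35.5 to 40.3, against 28.4% of all regions and 32.4% of other 3-list regions). At least 1 list without Flt3-ITD had it at 464 members (29.8%, 27.6 to 32.2, against 25.3% and 28.9%). H3K27ac touched 876 members (56.3%) in no list, against 66.4% of all regions and 60.1% of other 3-list regions. In all 6 lists it touched 124 (7.97%), against 8.32% and 6.97%. It touched 215 members (13.8%) in Flt3-ITD lists only, against 8.28% of all regions and 11.0% of other 3-list regions. In lists without Flt3-ITD only it touched 90 (5.79%), against 5.17% and 7.54%. Of the 215, 154 had it in 1 list, 44 in 2 and 17 in all 3.

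Promoter members carried H3K27ac more often than distal ones, in 72.3% against 33.5% for at least 1 Flt3-ITD list. All regions showed the same, with 62.7% at promoters against 24.8% of distal regions. The excess over all regions with Flt3-ITD alone sat in the distal members. There 202 of 1378 (14.7%, 12.9 to 16.6) had H3K27ac in Flt3-ITD lists only, against 8.27% of all distal regions. At promoters 13 of 177 (7.34%, 4.34 to 12.2) did, against 8.39% of all promoter regions. Members were wider than all regions (median 624 against 396 bp). Other 3-list regions (median 625 bp) had 11.0% for promoter and distal regions together and were not split by position.

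Within each pair of lists, the members where only 1 list had H3K27ac mostly went with Flt3-ITD. Between Flt3-ITD and wild type, 194 members (12.5%) had it only with Flt3-ITD and 91 (5.85%) only without, where all regions gave 7.39% and 3.94%. The Flt3-ITD share of those that differed was 68.1% (62.4 to 73.2) against 65.2% over all regions. Between Flt3-ITD/NUP98-HOXD13 and NUP98-HOXD13 the counts were 121 and 51, where all regions gave 5.55% and 3.12%, and the share was 70.3% (63.1 to 76.7) against 64.0%. Between Flt3-ITD/Runx1-het and Runx1-het the counts were 214 and 65, where all regions gave 7.85% and 4.14%, and the share was 76.7% (71.4 to 81.3) against 65.5%. The first 2 intervals include the share of all regions, and the third does not. Other regions held by exactly 3 lists gave 63.6, 60.3 and 67.0% in the same order of pairs. Only the first of these lies inside the members' interval, and the other 2 lie below it. The intervals cover counting error only. Regions held by all 6 H3K4me1 lists also went mostly with Flt3-ITD, at 66.5, 66.0 and 62.8% in the same order of pairs. The reverse set, with few regions that differed, gave 48.4% (32.0 to 65.2), 80.8% (62.1 to 91.5) and 61.9% (40.9 to 79.2), and each of its intervals overlaps that of the members.

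**Figure D3:**
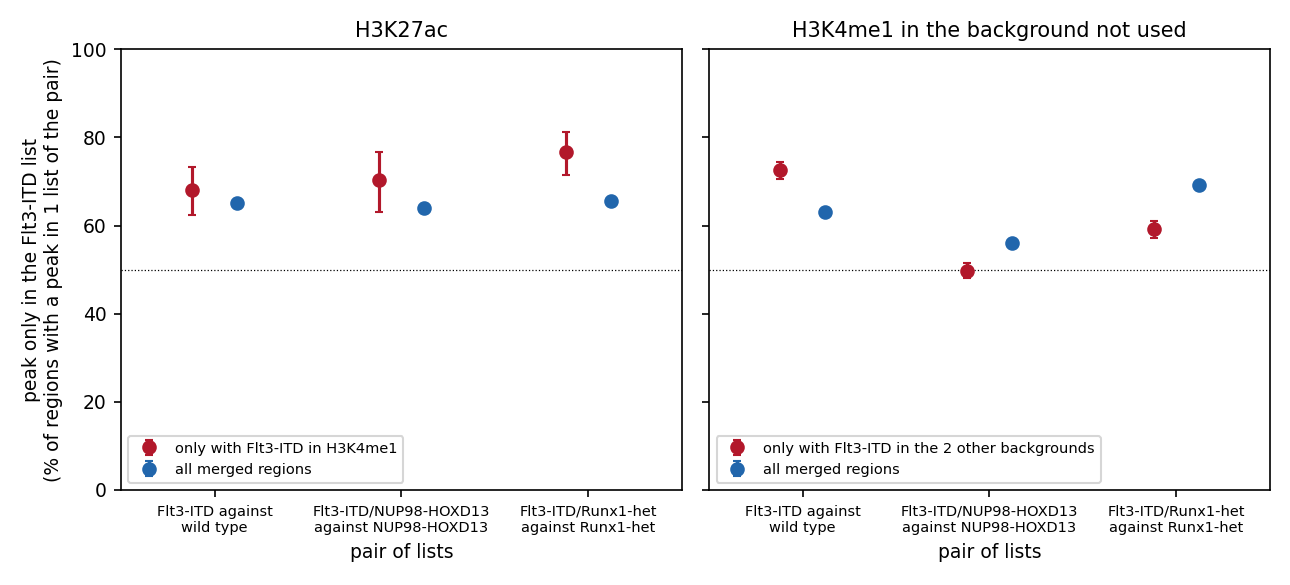
Share of regions held by 1 list of a pair that were held by the Flt3-ITD list (y axis, percent), for H3K27ac at the members (left) and for H3K4me1 in the background that was left out of the rule (right). Bars are 95% Wilson intervals, the dotted line is 50% and blue points are all merged regions; for H3K27ac the red points lie at 68.1, 70.3 and 76.7%, and for H3K4me1 at 72.6, 49.7 and 59.1%.

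These H3K27ac counts take any overlap, and the median width of the H3K27ac peaks differed between lists. The part of peak width in the counts was not tested. The median H3K27ac peak was 389 bp wide in the wild-type list and 769 bp wide with Flt3-ITD. It was 592 bp wide with NUP98-HOXD13 alone and 888 bp with Flt3-ITD added, and 767 bp wide with Runx1-het alone and 586 bp with Flt3-ITD added. When a member counted only if the summit of an H3K27ac peak lay inside it, the Flt3-ITD list had 187 members (12%) and the wild-type list 181 (11.6%). The NUP98-HOXD13 pair then had 156 (10.0%) with Flt3-ITD and 131 (8.42%) without, and the Runx1-het pair 236 (15.2%) and 136 (8.75%). By summits the share that went with Flt3-ITD was 51.2% (45 to 57.4) in the wild-type pair, 58.2% (50.2 to 65.7) in the NUP98-HOXD13 pair and 70.8% (64.8 to 76.2) in the Runx1-het pair, against 47.9, 49.5 and 62.0% over all regions. The difference between members and all regions thus kept its direction in the 3 pairs, while the wild-type pair itself was nearly even. Counting summits does not even out the number of peaks per list. The H3K27ac lists held 36007 peaks with Flt3-ITD and 43363 in wild type. They held 33934 with Flt3-ITD/NUP98-HOXD13 and 36210 with NUP98-HOXD13, and 42672 with Flt3-ITD/Runx1-het and 31973 with Runx1-het. The part of list length in the shares by pair was not tested.

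The pattern of the rule, now in H3K27ac, was met by 17 members (1.09%, 0.684 to 1.74), which had it in all 3 Flt3-ITD lists and in none of the others. Over all regions 0.436% met it and over other 3-list regions 0.459%. Among regions held by all 6 H3K4me1 lists 0.999% did, and in the reverse set 2 of 246 (0.813%), and both of these shares lie inside the members' interval. The reverse H3K27ac pattern was met by none of the 1555, which allows a share of up to 0.246% by its Wilson interval. Over all regions 0.0512% met the reverse pattern, which lies inside that interval. At promoters lay 5 of the 17. In the Flt3-ITD list the H3K27ac summit was inside the member in 8 of 17, and in each double mutant in 7.

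At 4 of the 17 the summit was inside in all 3 Flt3-ITD lists. The second Ncam2 member is one of them, with H3K27ac values of 3.53, 4.96 and 2.59 in the 3 Flt3-ITD lists in the order used above. Another lies between genes near Pmch, a neuropeptide precursor gene, at chr10:88056376-88057188, with H3K27ac of 4.56, 2.87 and 5.13, H3K4me1 of 5.69, 5.09 and 5.14, and no H3K4me1 peak of a list without Flt3-ITD within 87.3 kb. The third, chr11:120826375-120827995, is 1.83 kb from the start of Fasn, the fatty acid synthase gene, in an intron of Ccdc57, with H3K27ac of 3.18, 3.52 and 4.77. The fourth, chr11:48798263-48799152, is 1.21 kb from Rack1, a ribosomal scaffold gene, with H3K27ac of 5.25, 3.65 and 5.66. At these 4 members the H3K27ac values ran from 2.59 to 5.66. They fell on both sides of the median of all peaks in their list, 4.42, 4.57 and 4.42.

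At Gbp3 the H3K27ac of this pattern was the edge of a promoter peak. Gbp3 encodes a guanylate-binding protein induced by interferon. Its member, chr3:142561301-142562160 in the first part of the gene, had H3K4me1 of 4.83, 4.42 and 5.14. H3K27ac peaks with values of 14.7, 15.1 and 18.5 touched it in the 3 Flt3-ITD lists, with summits outside it. All 3 lists without Flt3-ITD also had H3K27ac at the Gbp3 start, with highest values of 11.6 (wild type), 12.7 (NUP98-HOXD13) and 13.9 (Runx1-het). Those peaks ended 1.15, 1.18 and 1.05 kb past the outermost start, just short of the member, which begins at 1.27 kb. The Flt3-ITD peaks ended at 1.96, 1.76 and 2.05 kb. The Gbp3 promoter was acetylated in all 6 genotypes, and the peaks reached farther into the gene in those with Flt3-ITD. The member at Osbpl1a, a lipid-binding protein gene, lies 0.714 kb from its start, with H3K27ac of 12.5, 12.5 and 16.7 and summits outside the member.

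The other members of the pattern lie near Ppt1, Ect2l, Hhip, Pecam1, Nup43, Ksr1, Inhba, Lrp12, Dbt, Bmper and Tm9sf3. Pecam1 encodes an adhesion protein of endothelium and blood cells, and its intron member, chr11:106700102-106700634, had H3K27ac of 3.44, 3.26 and 4.42. Ksr1 encodes a scaffold of the RAF-MEK-ERK cascade. Its intron member, chr11:79044213-79044947, had 4.21, 4.83 and 4.59 and was 5.43 kb from any H3K4me1 peak without Flt3-ITD. The Ect2l intron held 3 members within 11.0 kb, all with H3K27ac in a Flt3-ITD list and none in a list without. At the first of them, chr10:18178124-18179239, the H3K27ac values were 14.7, 4.44 and 12.4, with every summit outside the member.

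Genes were assigned to a region by the nearest protein-coding start site within 50 kb. By that measure 1039 genes had a member, of which 935 had 1, 90 had 2 and 14 had 3 or more. Rcbtb2, a gene with RCC1 and BTB domains, had the most, 5 of its 45 H3K4me1 regions, followed by Fut8 (a fucosyltransferase, 4 of 56) and Zcchc7 (4 of 62). Pmch had 3 of 9 and Map3k7, the kinase TAK1, 3 of 20. Of all members, 355 (22.8%) lay within 50 kb of another member, and 32 clusters held 3 or more. The same share was not computed for other sets of regions, so these counts do not show clustering particular to the members.

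Of the 5 Rcbtb2 members, 4 had H3K27ac in a Flt3-ITD list and 2 in a list without. The strongest, chr14:73161678-73162638 in an intron, had H3K4me1 of 6.12, 5.40 and 5.14. Its H3K27ac was 4.56 with Flt3-ITD, 6.55 with Flt3-ITD/Runx1-het and 4.31 with Runx1-het, and it was in no other list. The last along the gene, chr14:73176653-73177233, had H3K27ac in all 6 lists, from 5.83 in wild type to 10.8 with Flt3-ITD, with overlap between lists with and without Flt3-ITD.

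For 17 gene lists of signalling pathways and blood cell types, the members were counted among all H3K4me1 regions assigned to the list, beside the 0.855% over all regions. The STAT5 target list had 12 members of 378 regions (3.17%, 1.83 to 5.47) and no reverse region. Among the other 16 lists the counts ran from 0 to 8 and every interval included 0.855%. The STAT5 count was 0 of 122 regions when only peaks with a −log10 q of at least 5 were kept in every list, where 0.851% of all regions were members. Stricter rules lowered the share of members among all regions too. With lists of equal length STAT5 targets had 7 of 301 (2.33%, 1.13 to 4.72, all regions 0.508%). When members within 1 kb of a peak without Flt3-ITD were dropped they had 4 of 378 (1.06%, 0.412 to 2.69, all regions 0.328%). When the Flt3-ITD lists had to cover a fraction of at least 0.5 of the region they had 2 of 378 (0.529%, 0.145 to 1.91, all regions 0.251%). The list is described by its counts, and its share was not tested against other lists.

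**Figure D4:**
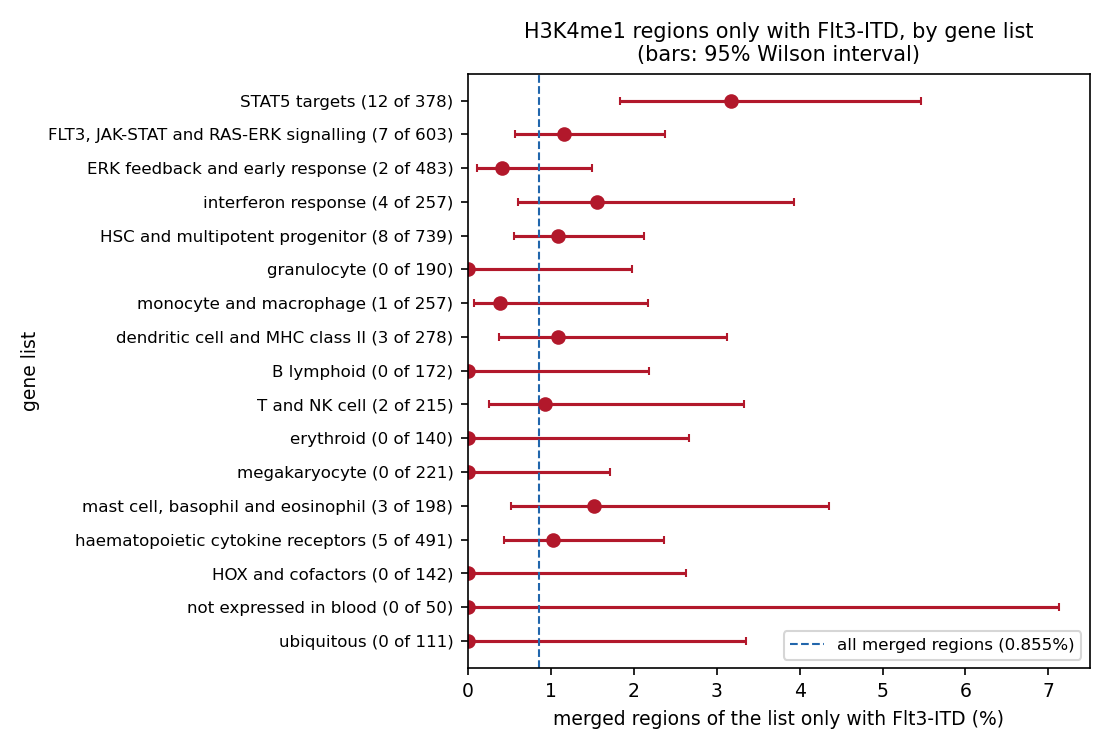
Share of the H3K4me1 regions of each gene list that were members (x axis, percent), with the counts beside each list name. Bars are 95% Wilson intervals, which cover counting error only, and the dashed line is the 0.855% of all regions; the interval of the STAT5 targets starts at 1.83%.

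The 12 members came from 7 of the 18 STAT5 targets, the feedback inhibitors Socs2 (3 members), Socs3 (2) and Socs1 (1), the survival gene Bcl2l1 (3), the cell cycle genes Ccnd3 and Cdkn1a (1 each) and Id1 (1), an inhibitor of helix-loop-helix factors. H3K27ac touched 5 of the 12 in a Flt3-ITD list. Without Socs2 the list had 9 members of 353 regions.

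The 3 Socs2 members lie inside the annotated gene. The first, chr10:95408369-95410943, had H3K4me1 of 7.19 with Flt3-ITD, 3.71 with Flt3-ITD/NUP98-HOXD13 and 6.23 with Flt3-ITD/Runx1-het, and was 7.88 kb from the nearest peak without Flt3-ITD. H3K27ac was 5.42 there with Flt3-ITD and 9.76 with Flt3-ITD/Runx1-het, the latter with its summit outside the member. No H3K27ac peak touched this member in the other 4 lists. The second, chr10:95393192-95394106, had H3K4me1 of 4.19, 3.09 and 6.59 and H3K27ac of 5.16 with Flt3-ITD and 6.13 with Flt3-ITD/Runx1-het. The third, chr10:95389024-95389977, had 5.05, 3.56 and 5.45 and H3K27ac of 4.39 with Flt3-ITD. All 3 thus had H3K27ac in the Flt3-ITD list, none had it in Flt3-ITD/NUP98-HOXD13, and none had it without Flt3-ITD.

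Around these members the Socs2 start itself differed between lists. In the Flt3-ITD list a peak of H3K27ac with a value of 15.4 covered 0.186 to 5.11 kb past the outermost start, in Flt3-ITD/NUP98-HOXD13 a peak of 12 covered −0.827 to 4.09 kb, and in Flt3-ITD/Runx1-het a peak of 17.8 covered −0.782 to 4.27 kb. The NUP98-HOXD13 list had 1 small Socs2 peak there, 3.75 from 0.405 to 0.710 kb, and the wild-type and Runx1-het lists had none within the gene's first 10 kb. The map of the locus shows the members beside this block, and not within it.

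**Figure D5:**
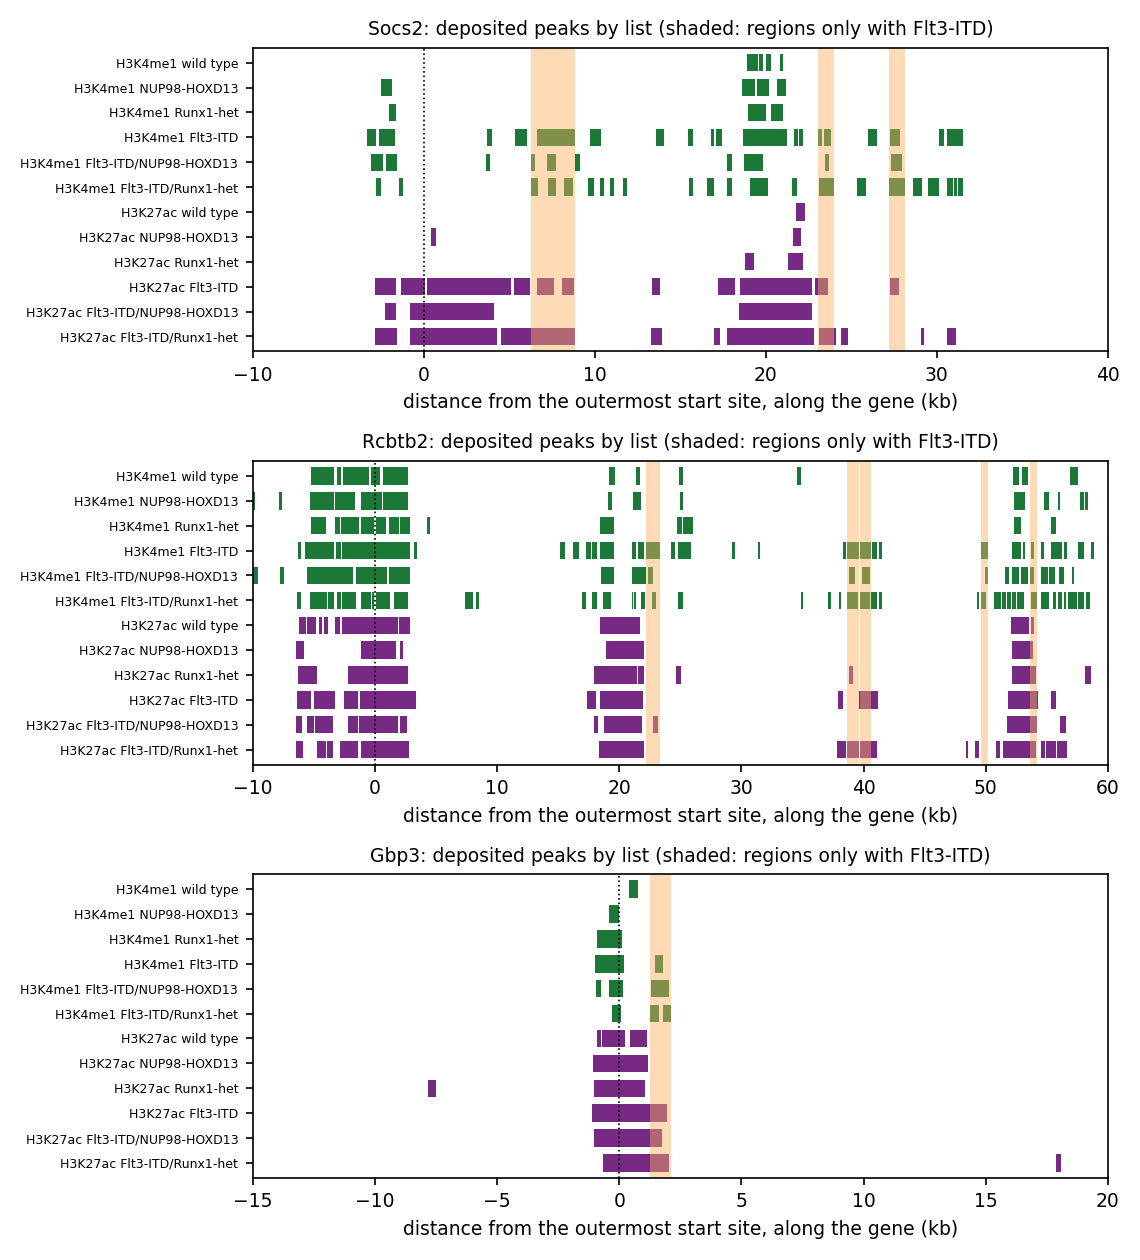
Deposited peaks around Socs2, Rcbtb2 and Gbp3 in each H3K4me1 (green) and H3K27ac (purple) list, by distance in kb from the outermost annotated start along the gene (x axis), with 1 row per list and members shaded. At Socs2 H3K27ac extends over the first 4.09 to 5.11 kb in the Flt3-ITD lists, and at Gbp3 all 6 lists have H3K27ac at the start.

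The Bcl2l1 members lie in introns at chr2:152794499-152795074 (4.62, 3.56 and 4.42), chr2:152795344-152795982 (3.76, 3.25 and 4.06) and chr2:152821440-152822370 (3.34, 3.81 and 5.87). H3K27ac touched only the first of the Bcl2l1 members, with 3.53 in the Flt3-ITD/Runx1-het list. All 3 were within 1 kb of an H3K4me1 peak without Flt3-ITD, at 0.942, 0.034 and 0.043 kb. The Ccnd3 member, 0.601 kb from a start, had 3.53, 4.63 and 7.32 with H3K27ac of 2.95 in the Flt3-ITD list. The Id1 member, 0.804 kb from its start, had 3.88, 4.27 and 5.14 and no H3K27ac. The Cdkn1a member had 3.45, 5.40 and 5.14, and its only H3K27ac peak was in the Runx1-het list (3.83).

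Signalling genes (FLT3, JAK-STAT and RAS-ERK) had 7 members of 603 regions (1.16%) and 2 reverse regions, with members at Jak1 (2), Cbl, Flt3, Gab2, Ptpn11 and Syk. The Flt3 member, chr5:147384877-147385729, lies in an intron of the gene that carries the duplication and had H3K4me1 of 4.09, 3.66 and 4.78. A peak without Flt3-ITD lay 0.014 kb away, and Flt3 also had 1 reverse region among its 20 regions. H3K27ac was present there in wild type (5.99), NUP98-HOXD13 (2.61), Flt3-ITD/Runx1-het (3.88) and Flt3-ITD/NUP98-HOXD13 (3.96), and absent from Flt3-ITD and Runx1-het. It did not follow the Flt3-ITD genotypes. One Jak1 member, chr4:101283324-101284822, was 4.90 kb from any peak without Flt3-ITD and had 4.08, 3.54 and 6.53 with H3K27ac of 4.44 in Flt3-ITD/Runx1-het. The list of ERK feedback and early response genes had 2 of 483, at Dusp2 and Ier3.

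Interferon response genes had 4 members of 257 (1.56%), 1 each at Gbp3, Cxcl10, Ifit1 and Zbp1. Cxcl10 encodes a chemokine, and its member, 3.94 kb away in an intron of Art3, had H3K4me1 of 4.62, 3.56 and 6.23. H3K27ac reached it with 8.23, 6.86 and 10.6 in the Flt3-ITD lists and with 5.54 in wild type and 6.58 in NUP98-HOXD13. All of these summits lay outside the Cxcl10 member. Zbp1 encodes a nucleic acid sensor, and its member had H3K27ac of 5.25, 4.31 and 6.38 in the Flt3-ITD lists and 4.38 in NUP98-HOXD13. The Ifit1 member had no H3K27ac. Both the Cxcl10 and the Zbp1 members had H3K27ac in every Flt3-ITD list and in some lists without Flt3-ITD.

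Stem cell and multipotent progenitor genes had 8 members of 739 (1.08%), 2 each at Hlf, Lmo2 and Mecom and 1 each at Gata2 and Kit. Mecom encodes a transcription factor needed by stem cells. Its member chr3:30013698-30014590, 0.193 kb from a start, had H3K4me1 of 5.26, 3.71 and 4.78. H3K27ac was 5.0 in wild type, 3.11 with NUP98-HOXD13 and 3.88 with Flt3-ITD/Runx1-het, with a summit inside the member in each. In the Flt3-ITD/NUP98-HOXD13 list a peak of 12.7 touched the member with its summit outside. H3K27ac peaks touched the Hlf member chr11:90386707-90387600 (4.09, 3.65 and 4.89) in all 6 lists, with all summits outside it. Their values were 12.6 in wild type, 7.51 with NUP98-HOXD13 and 12.7 with Runx1-het. They were 8.79 with Flt3-ITD, 10.4 with Flt3-ITD/NUP98-HOXD13 and 5.48 with Flt3-ITD/Runx1-het. The Kit member, in an intron of this receptor kinase gene, had 3.88, 2.86 and 3.30 and H3K27ac of 4.16 in the Flt3-ITD list alone. No member lay within 50 kb of a start of Runx1, Nup98 or Hoxd13.

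Mature lineage lists had from 0 to 3 members each. There were none among 190 granulocyte, 172 B lymphoid, 140 erythroid, 221 megakaryocyte and 142 HOX regions, whose upper Wilson limits were 1.98, 2.18, 2.67, 1.71 and 2.63%. The monocyte and macrophage list had 1 of 257 (0.389%, Fcgr1), dendritic cell and MHC class II genes 3 of 278 (1.08%, Ccr7, H2-Aa and Tcf4), T and NK cell genes 2 of 215 (0.930%, Il2rb and Tcf7) and mast cell, basophil and eosinophil genes 3 of 198 (1.52%, Gata2, Kit and Mitf). The intervals of these 4 lists include the 0.855% of all regions. Cytokine receptors had 5 of 491 and 2 reverse regions, with members at Csf2rb2, Flt3, Il18rap, Il2rb and Kit. The Csf2rb2 member had H3K4me1 of 3.55, 4.63 and 4.78 and no H3K27ac in any list. The control lists had none of 50 regions at genes not expressed in blood and none of 111 at ubiquitous genes. The upper limits of the lists without a member all exceed the 0.855% of all regions, so a share below it was not detectable in lists of this size.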

How the data were processed

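H3K4me1 and H3K27ac were mapped by ChIPmentation in 39 samples of 6 genotypes, and 1 input sample was not used here. Groups came from the labels. BWA alignment to mm10 (GRCm38) and MACS2 peak calling are named per the submitters' processing notes, with versions and threshold not given in the sources used here. Each deposited list, 1 per genotype and mark, pools the samples of its group. It gives per peak a deposited score (an integer), the authors' fold enrichment over control, which is a ratio, the deposited −log10 p and −log10 q, and the summit position. The deposited fold enrichment was used to rank and describe peaks within a list, and the −log10 values to shorten or filter lists. Read depth is unknown, so no depth-based precision is given.

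Regions were built with Python 3.11.15, numpy 2.4.6 and pandas 2.3.3, and the merging and overlap steps were tested on simulated data. Gene models were those of mouse GENCODE 21, with 41135 start sites of 21755 protein-coding genes. Shares carry 95% Wilson intervals. The planned search for GAS letters around peak summits needs a genome sequence that was not used here, and RefSeq promoter windows took its place. A promoter window counted when at least 150 of its 300 bases were inside the region.

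The members, gene lists and alternatives were chosen with earlier results of these data known, and the STAT5 list is no independent support for results already seen. Members named are the first 20 in order of their lowest within-list percentile, those of the 10 genes with the most members, up to 4 genes per list, those near Flt3, Runx1, Nup98 or Hoxd13, those with the pattern in H3K27ac, and the 3 just inside and just outside the rule, 1 of which is not reported here. Alternatives were equal-length lists (72676 H3K4me1 or 31973 H3K27ac peaks), a −log10 q of at least 5, a gap of 1 kb, coverage of 0.5, autosomes only, promoters within 2 kb, starts within 100 kb, and other GAS letters or windows. A gap of 5 kb, rules over 2 backgrounds, H3K27ac summits and the STAT5 list without Socs2 were added after the data were seen.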

Additional observations from a re-analysis of the deposited data

How the results depend on the processing

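Of 56 recomputed values, 22 stayed close to the reported one and 34 moved; autosomes only moved none. The member count was 747 with equal-length H3K4me1 lists, 438 with −log10 q of at least 5, 597 with a gap of 1 kb, 457 with coverage of 0.5 by the Flt3-ITD lists, 222 with a gap of 5 kb, and 5820, 9352 and 6256 with the wild-type, NUP98-HOXD13 or Runx1-het pair left out. Members per reverse region ranged from 1.78 (equal-length lists) to 8.29 (gap of 1 kb). H3K27ac in a Flt3-ITD list and in a list without it, reported as 37.9 and 29.8%, was at 44.7 and 34.4% (equal-length H3K4me1 lists, with 32.5 and 29.1% of all regions), 76.7 and 66.2% (−log10 q of at least 5, with 54.2 and 49.3% of all regions), 26.8 and 18.6% (H3K27ac over at least 0.5 of the member), 33.8 and 26.3% (equal-length H3K27ac lists) and 25.7 and 20.5% (summit inside). With a gap the first share was higher and the second lower, at 40.2 and 27.3% for 1 kb and 41.4 and 24.8% for 5 kb. The H3K27ac pattern was met by 0.514% with coverage of 0.5, by 2.25% with a gap of 5 kb and by 0.257% by summits. The promoter share was 7.99% with −log10 q of at least 5, 15.6% with a gap of 1 kb and 17.2% within 2 kb. STAT5 targets had 7 members of 301 regions with equal-length lists (2.33%, all regions 0.508%), 0 of 122 with −log10 q of at least 5 (all regions 0.851%), 4 of 378 with a gap of 1 kb (1.06%, all regions 0.328%) and 2 of 378 with coverage of 0.5 (0.529%, all regions 0.251%). The GAS share was 0% with a gap of 1 kb, with coverage of 0.5 and for TTCCNGGAA. The cause of these shifts was not tested. No paired analysis was possible because each list pools its samples, and for the same reason no replicate could be left out. Wilson intervals treat regions as independent and cover counting error only, and neighbouring members share peaks and libraries.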

Other observations

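4 groups of neighbouring members were not described above. The Fut8 and Max neighbourhood on chromosome 12 held 6 members over 135 kb, of which 4 had H3K27ac in a Flt3-ITD list and 2 in a list without. The Cd24a neighbourhood, around a surface glycoprotein gene of blood progenitors, held 3 members among 17 regions over 43.6 kb, and none of the 3 had H3K27ac in any list. Between Kdr, an endothelial receptor gene, and Kit lay 3 members among 29 regions over 46.9 kb, again with no H3K27ac. Far from Runx1, 4 members had its start as the nearest, at 201 to 387 kb. Of these Runx1 members, 2 had no H3K27ac in any list. The farthest had it in the Flt3-ITD/NUP98-HOXD13 (3.39) and Runx1-het (4.79) lists. The nearest had it in the Flt3-ITD (13.3), Flt3-ITD/NUP98-HOXD13 (12.9) and NUP98-HOXD13 (3.18) lists.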
